A study of Bos taurus with 30 samples.

Results

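The genes of the 3 nuclear RNA polymerases and of ribosome biogenesis were examined in bovine corpus luteum, the progesterone-secreting gland that an ovulated follicle becomes. Genes were taken by their symbol in the platform annotation. The rule took symbols beginning with POLR1, POLR2 or POLR3, symbols in which NOP, UTP or RRP is followed by a digit, and FBL, NCL, NPM1, DKC1, BOP1 and PES1. It found 50 of the 9155 named genes, of which 26 encode polymerase subunits and 24 encode ribosome biogenesis proteins. No probe set was annotated with NPM1 or BOP1, so these 2 genes were not analysed here. A gene with several probe sets, as 16 of the 50 were, was represented by its brightest one (mean of all 30 arrays). All 50 entered the test.

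The study assigned 30 Angus crossbred heifers to 6 groups of 5 at random, and each animal gave luteal tissue for 1 array. Glands were taken on day 11 of the estrous cycle, the mid-cycle gland, at 0, 4 and 24 h, or on day 4, the early gland, at 0, 4 and 24 h. Animals of the 4 h and 24 h groups had received prostaglandin F2α (PGF2α), and those of the 0 h groups were saline controls. The labels name no saline animals at 4 or 24 h, so PGF2α, the injection and the elapsed time cannot be told apart. The heifers' age and the dose are not given in the labels.

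RNA polymerase I transcribes the long ribosomal RNA precursor in the nucleolus. RNA polymerase III makes transfer RNA and the smallest ribosomal RNA, and RNA polymerase II makes messenger RNA and most small nucleolar RNA (snoRNA). Some subunits are shared among these enzymes. The ribosomal RNA precursor is modified by snoRNA-protein particles, in which fibrillarin (FBL) methylates riboses and dyskerin (DKC1) makes pseudouridine, and is then cut and folded by the small subunit processome and by assembly factors of the large subunit. Production of ribosomes is known to follow cell growth and division. The early corpus luteum is growing quickly, and PGF2α starts the regression of the mid-cycle gland but not of the early one.

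Values are log2 signals, so a difference of 1 is a doubling of signal. The 50 genes averaged 4.87 to 11.34 over the 30 arrays, and 4 of them (POLR1F, POLR3D, POLR3K and NOP10) lay below 6.09, the median of all probe sets. Their SD within a group had a median of 0.18. Array medians were 6.01 to 6.16, and arrays of a group correlated at 0.978 to 0.994. Replicate 1 of day 11 at 4 h stood apart in its EF1A control probe sets, with a 3′ minus 5′ difference of -1.40, against -2.64 to -2.10 in the other 29 arrays. This array was also the lowest of the 30 in the same difference for GAPDH (0.09) and in the weight limma gave an array (0.32). The steroidogenic markers STAR, CYP11A1 and HSD3B1 were bright in every group. CYP11A1 averaged 12.75 to 13.47 and HSD3B1 11.39 to 13.71. PTGFR averaged 10.51 to 11.51, and LHCGR was dimmer, from 7.92 on day 11 at 0 h to 5.67 on day 11 at 24 h. Whole glands were sampled, so fewer cells of a type and less RNA per cell cannot be told apart. A gene was called at an adjusted p under 0.05 in limma (moderated test, Benjamini-Hochberg over 24016 probe sets).

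The first comparison set day 11 against day 4 glands without PGF2α. In day 11 glands 30 of the 50 genes were lower and 2 were higher, against 17.7% of all probe sets called lower and 16.2% called higher. The shares of all named genes were 26.5% lower and 17.9% higher. The 5 arrays of each day did not overlap for 27 of the 50 genes, against 2992 of the 9155 named genes and 5614 of 24016 probe sets. The median log2 difference was -0.44 over the 50 genes and -0.02 over all named genes. Among the biogenesis genes 17 of 24 were lower and 0 higher, with 0 higher also at an unadjusted p under 0.05 (limma). The share of all probe sets at that threshold was not counted. Among the polymerase genes 13 of 26 were lower and 2 higher.

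**Figure D1:**
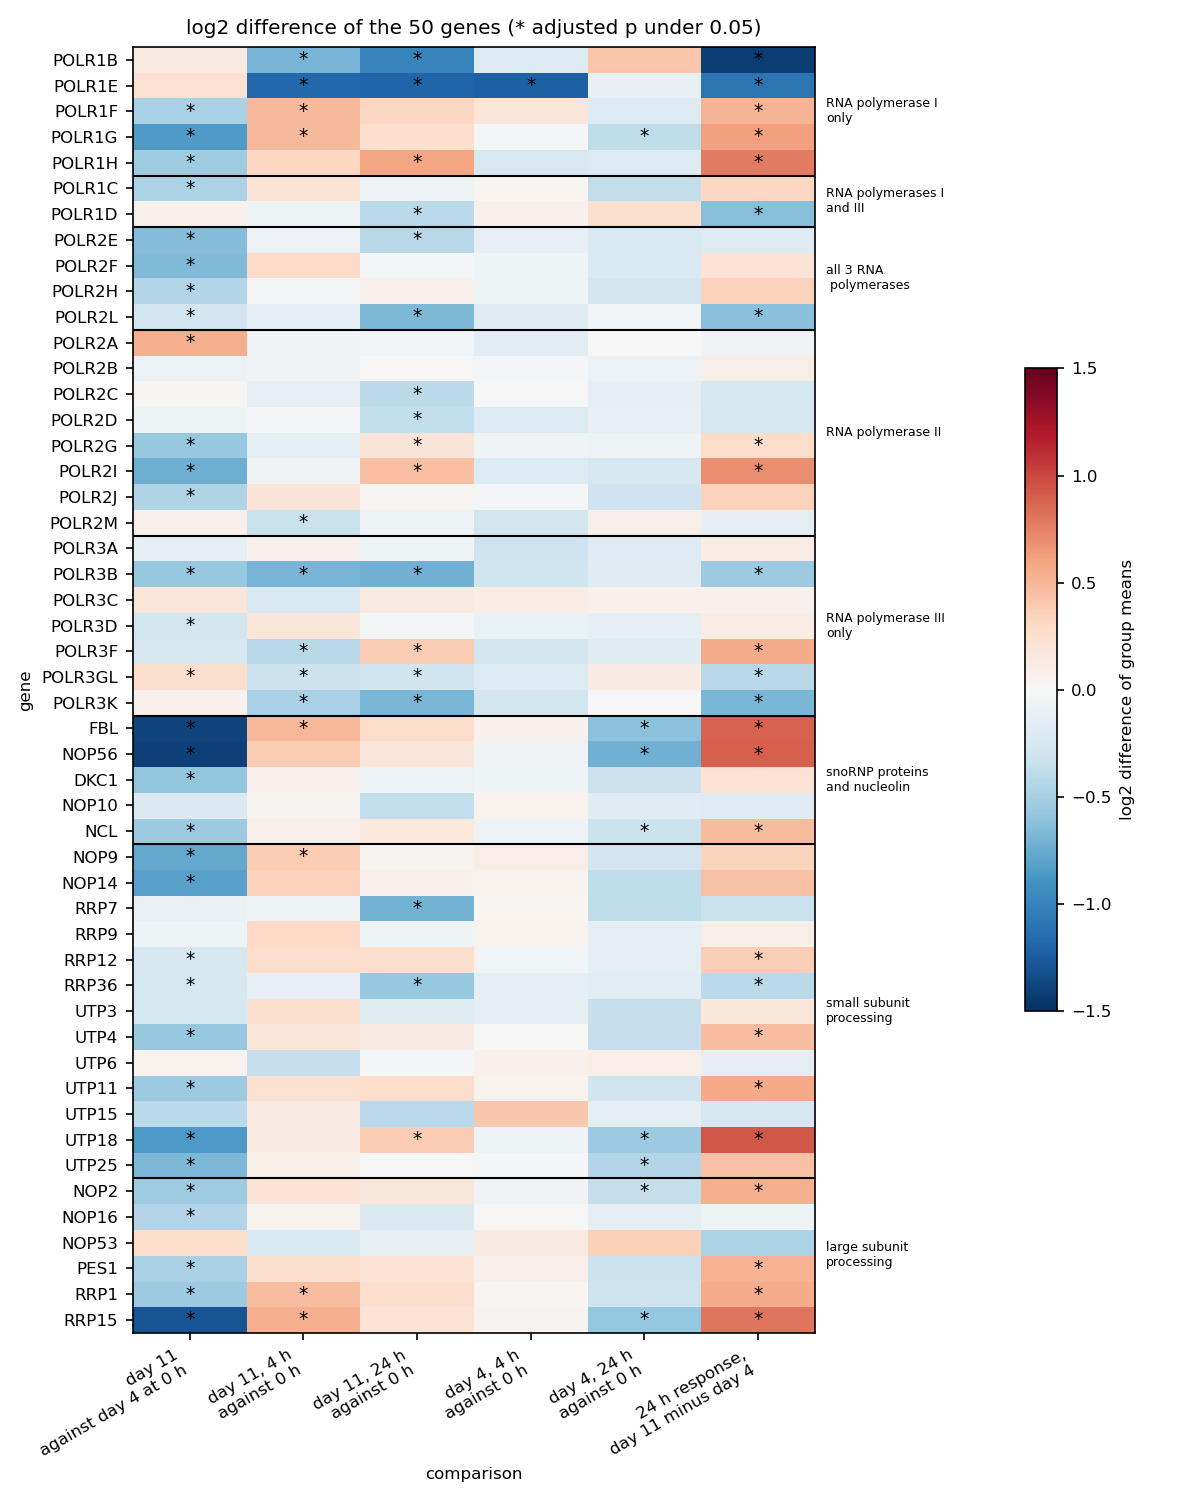
Colour map of log2 differences (red, higher in the group named first; blue, lower) for the 50 genes, in rows ordered by role, over 6 comparisons in columns; a star marks a limma adjusted p under 0.05 and the colour scale ends at 1.5 in each direction. The left column is mostly blue (30 genes lower on day 11), and POLR1E is dark blue in both 4 h columns and in the day 11 column at 24 h.

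The 2 largest stage differences among the 50 belonged to snoRNA-protein particle genes. NOP56 (Entrez Gene 404165), a core protein of the box C/D particles that guide ribose methylation, had signals of 9.01, 9.15, 9.23, 9.12 and 9.38 in day 11 glands, against 10.42, 10.24, 10.76, 10.98 and 10.49 in day 4 glands. Every day 11 gland lay below every day 4 gland, by a mean of -1.40 ± 0.17 on the log2 scale (SE; limma adjusted p = 2.5e-07), 2.64-fold lower. A second, dim probe set of NOP56, with a mean of 3.14, differed by -0.13 and was not called. FBL, the methyltransferase of the same particles, had 9.02, 9.62, 9.56, 9.27 and 9.29 in day 11 glands, against 10.67, 10.58, 10.83, 10.92 and 10.70 in day 4 glands. The ranges were again apart, and the difference was -1.39 ± 0.14 (limma adjusted p = 1.8e-08). DKC1 was lower by -0.59 ± 0.10 and NCL, the nucleolar RNA-binding protein nucleolin, by -0.55 ± 0.08 (limma adjusted p = 3.4e-05 and 2.8e-06). NOP10, a small protein of the pseudouridine particles, differed by -0.22 and was not called.

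Factors of large subunit assembly were lower on day 11 in 5 of 6 cases. RRP15, which in yeast is a component of large subunit precursors, had 5.40, 6.18, 6.03, 6.15 and 6.25 in day 11 glands, against 7.54, 6.87, 7.48, 7.17 and 7.42 in day 4 glands. The groups did not overlap, and the difference was -1.29 ± 0.17 (limma adjusted p = 1.2e-06). RRP1, NOP2 (a ribosomal RNA methyltransferase), PES1 (a scaffold of large subunit processing) and NOP16 were lower by -0.55 to -0.44. The 2 other probe sets of NOP2 differed by -0.19 and -0.12 and were not called. NOP53 differed by 0.28 and was not called.

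Factors of small subunit processing were lower on day 11 in 8 of 13 cases and higher in 0. UTP18, NOP14 and NOP9 fell by 0.86, 0.82 and 0.77 on the log2 scale (limma adjusted p = 4.0e-06, 1.3e-05 and 5.3e-06). UTP18 had 6.40, 6.49, 6.69, 6.60 and 6.44 in day 11 glands, against 7.65, 7.19, 7.47, 7.34 and 7.27 in day 4 glands. UTP25, UTP4 and UTP11 were lower by -0.67 to -0.55, and RRP12 and RRP36 by -0.25 and -0.26. RRP7, RRP9, UTP3, UTP6 and UTP15 were not called. Of the 3 other probe sets of UTP11, 1 was called (-0.50, limma adjusted p = 4.3e-04), and the dimmer ones differed by -0.20 and -0.05 and were not. For NOP9 the 2 other probe sets did not give 1 answer, with -0.93 in one (adjusted p = 1.1e-04) and -0.12 in the other (adjusted p = 0.43, limma).

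Of the 5 genes that serve RNA polymerase I alone, 3 were lower on day 11. POLR1G, which forms a dimer with POLR1E on the enzyme, had 5.89, 6.41, 6.00, 6.13 and 6.20 in day 11 glands, against 6.78, 6.83, 7.13, 7.07 and 7.09 in day 4 glands, a difference of -0.85 ± 0.10 with no overlap (limma adjusted p = 1.8e-07). POLR1H, a small subunit for transcript cleavage, was lower by -0.53 and POLR1F, of the stalk, by -0.49. POLR1E differed by 0.23 and POLR1B, the second largest subunit, by 0.14, and neither was called.

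All 4 subunits shared by the 3 polymerases were lower on day 11. POLR2F, POLR2E and POLR2H, called without any overlap, fell by 0.66, 0.65 and 0.44 on the log2 scale, and POLR2L was lower by -0.29. Of the RNA polymerase II subunits, POLR2I, POLR2G and POLR2J were lower (-0.73, -0.57 and -0.45). POLR2A, the largest subunit, which carries the regulated tail of the enzyme, went the other way. It had 10.29, 9.82, 9.74, 9.70 and 9.55 in day 11 glands, against 9.33, 9.18, 9.14, 9.37 and 9.33 in day 4 glands. All 5 day 11 glands lay above the day 4 glands, a difference of 0.55 ± 0.12 (limma adjusted p = 6.6e-04). The second probe set of POLR2A, a dim one with a mean of 3.48, differed by 0.07 (limma adjusted p = 0.75).

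RNA polymerase III gave a mixed picture, with POLR3B, the second largest subunit, and POLR3D lower by -0.57 and -0.28. POLR3GL, one of a pair of alternative subunits of the initiation module, was higher on day 11, with 7.57, 7.10, 7.51, 7.33 and 7.43, against 6.93, 7.20, 7.25, 7.25 and 7.00 on day 4 (0.26 ± 0.09, limma adjusted p = 0.024). These groups overlapped. POLR1C, shared by polymerases I and III, was lower by -0.48, and its partner POLR1D was not called.

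**Figure D2:**
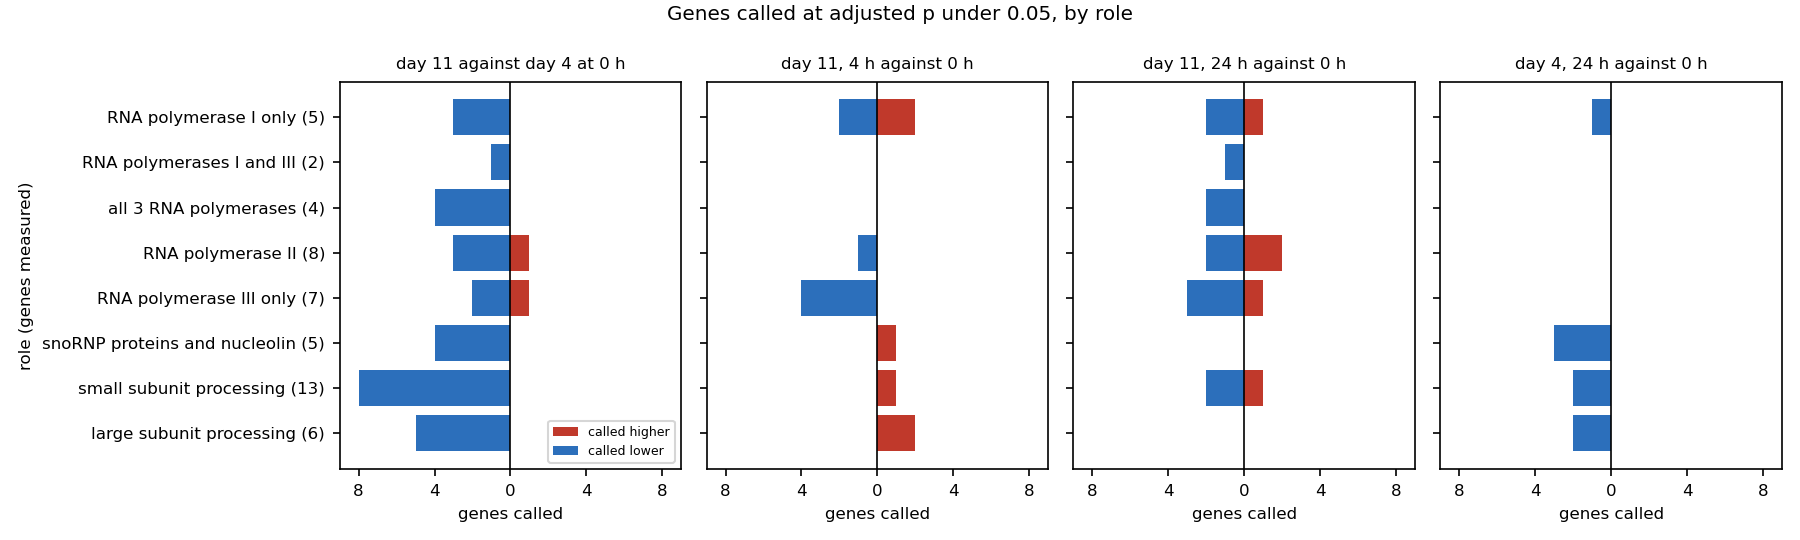
Bars give the number of genes called higher (red, to the right) or lower (blue, to the left) in each of 8 roles, with the number measured in parentheses, for 4 comparisons. The longest bar is that of 8 small subunit processing genes lower on day 11 than on day 4, and on day 4 at 24 h every bar points to lower.

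Other genes of ribosome production were lower on day 11 as well, beside the 17.7% of all probe sets called lower. Of 35 further small subunit factors measured, 28 were lower and 2 higher, and of 35 large subunit factors 27 were lower and 0 higher (0 by limma). Of 14 genes of the RNA exosome and precursor trimming 10 were lower, and of 11 snoRNA-protein assembly genes 6 were lower. LYAR, a nucleolar growth protein, fell by 1.66 on the log2 scale, NHP2, a protein of the pseudouridine particles, by 1.20 and EMG1, a ribosomal RNA methyltransferase, by 1.19 (limma adjusted p = 6.0e-08, 4.5e-08 and 1.4e-08). Of the transcription factors of RNA polymerase II 11 of 29 were lower and 4 higher. The 2 of 9 lower among RNA polymerase I factors and subunits under other symbols, and the 2 of 10 lower and 1 higher among RNA polymerase III factors, are near the share over all probe sets. In the MYC network, a regulator of ribosome production, MXD3 fell by 1.55 on the log2 scale, and 2 of 7 genes measured were higher.

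Markers of dividing cells moved with these genes. Their mean log2 signal (5 genes) had a lowest, median and highest value of 6.80, 7.07 and 8.66 in day 11 glands, against 10.01, 10.09 and 10.35 in day 4 glands, and all 5 were called lower. In day 11 glands the dividing cell mean was highest in replicate 2 (8.66), whose mean of the 24 biogenesis genes was 7.86, and the biogenesis mean was highest in replicate 3 (8.12). Of 6 macrophage markers 5 were higher on day 11, as were 3 of 6 T and NK cell, 3 of 5 steroidogenic and 1 of 2 B cell markers. Lower were 4 of 6 fibroblast and smooth muscle markers and 2 of 3 neutrophil markers, and of 7 endothelial markers 3 were higher and 1 lower. The part of these cell types in the result was not tested. Of the 30 lower calls 26 held without any 1 array. POLR2L, POLR3D, RRP12 and RRP36, and POLR3GL among the higher calls, each missed the threshold without some of the 10 arrays, with adjusted p up to 0.18.

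**Figure D3:**
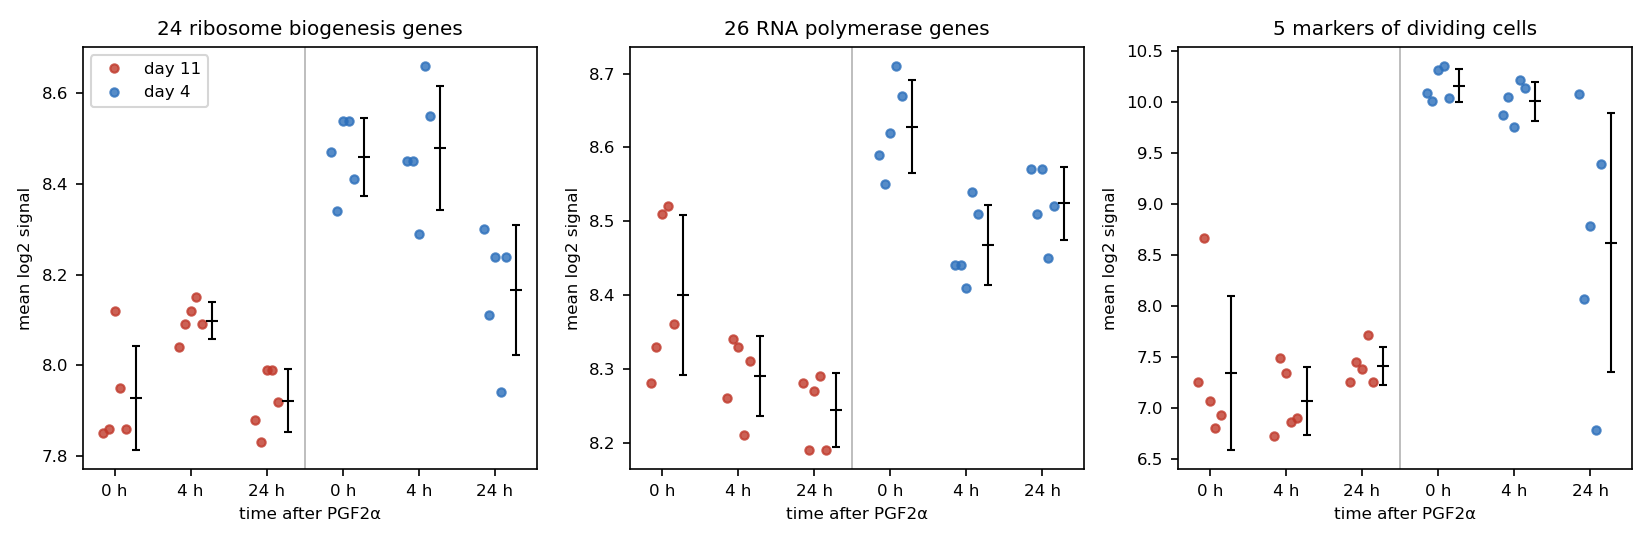
Mean log2 signal per array (points; black bars, mean and SD of 5 arrays) of the 24 biogenesis genes, the 26 polymerase genes and 5 markers of dividing cells, with day 11 in red on the left of each panel and day 4 in blue on the right. Day 11 arrays at 0 h span 7.85 to 8.12 for the biogenesis genes and day 4 arrays at 0 h span 8.34 to 8.54. For the same genes day 4 arrays span 8.29 to 8.66 at 4 h and 7.94 to 8.30 at 24 h. For the markers of dividing cells they span 9.75 to 10.21 at 4 h and 6.78 to 10.08 at 24 h.

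The next comparisons asked what PGF2α treatment was followed by within each day. At 4 h on day 11, 6 of the 50 genes were higher and 7 were lower than at 0 h, against 8.02% of all probe sets called higher and 10.3% called lower. For all named genes the shares were 10.1% and 13.1%. These shares of the 50 are close to those of the array. Of the biogenesis genes 4 rose and 0 fell (0 also at an unadjusted p under 0.05, limma, with no count of all probe sets there). Polymerase genes rose in 2 cases and fell in 7, a difference between roles that was not tested. Fitted with only the 10 arrays of this comparison, 4 of the 50 genes rose and 2 fell. Of the 7 lower polymerase genes POLR1E and POLR3B were then still called, and POLR1B, POLR2M, POLR3F, POLR3GL and POLR3K were not (limma adjusted p of 0.06 to 0.18). At 4 h on day 4, 0 genes were higher and 1 was lower, against 2.69% of all probe sets called higher and 1.55% called lower. Named genes were called higher in 3.29% and lower in 1.99%. At an unadjusted p under 0.05 these day 4 counts were 1 higher and 7 lower (limma), with no count of all probe sets at that threshold.

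POLR1E (Entrez Gene 511587) was the 1 gene called at 4 h on day 4. Its product is the RNA polymerase I subunit that pairs with POLR1G and takes part in initiation. On day 11 it had 9.11, 9.68, 9.41, 9.57 and 9.35 at 4 h, against 10.43, 10.61, 10.71, 10.74 and 10.54 at 0 h. On day 4 it had 9.12, 9.04, 9.18, 9.12 and 9.27 at 4 h, against 10.50, 10.08, 10.29, 10.53 and 10.47 at 0 h. Every 4 h gland lay below every 0 h gland on both days. The log2 difference was -1.18 ± 0.10 on day 11 and -1.23 ± 0.10 on day 4 (limma adjusted p = 1.3e-09 and 3.1e-09), 2.27-fold and 2.34-fold lower.

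The course of POLR1E then parted between the days. At 24 h it had 9.39, 9.43, 9.32, 9.60 and 9.26 on day 11 and 10.43, 10.35, 10.31, 10.20 and 10.05 on day 4. The day 11 glands were still below their 0 h level (-1.20 ± 0.10, limma adjusted p = 3.0e-10), and 4 of the 5 day 4 glands lay within their 0 h range, with the other just below it (-0.11 ± 0.10, adjusted p = 0.70). On day 4 the rise between 4 h and 24 h was 1.12 ± 0.10 (limma adjusted p = 1.0e-08). The 24 h response was lower on day 11 than on day 4 by -1.10 ± 0.14 (limma adjusted p = 1.6e-06).

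The other 3 probe sets of POLR1E moved alike. At 4 h they differed from 0 h by -1.23, -1.08 and -0.36 on day 11 and by -1.24, -1.28 and -0.44 on day 4, and at 24 h on day 11 by -1.21, -1.21 and -0.68. The smallest of these differences belonged to a dim probe set with a mean of 4.11. No call of POLR1E was lost under the other settings tried or without any 1 array.

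**Figure D4:**
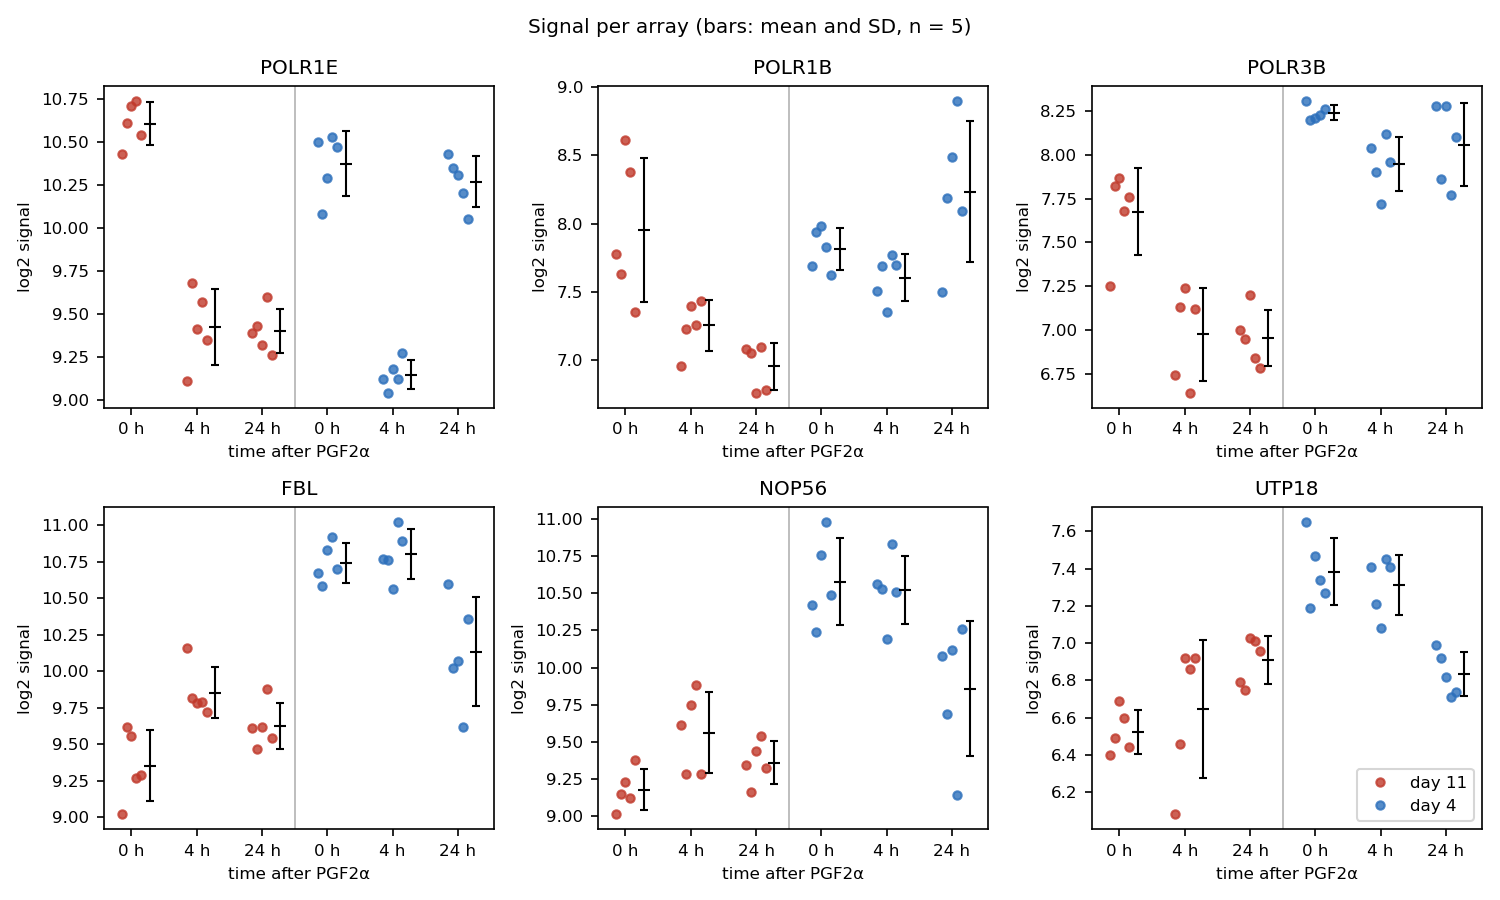
Log2 signal per array (points) with mean and SD of 5 arrays (black) for POLR1E, POLR1B, POLR3B, FBL, NOP56 and UTP18, with day 11 in red on the left and day 4 in blue on the right, each at 0, 4 and 24 h after PGF2α. POLR1E lies between 9.04 and 9.68 at 4 h on both days, and at 24 h day 11 arrays stay at 9.26 to 9.60 while day 4 arrays lie at 10.05 to 10.43.

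Other subunits of RNA polymerase I moved in both directions on day 11. POLR1F and POLR1G rose at 4 h by 0.49 ± 0.12 and 0.49 ± 0.10 (limma adjusted p = 0.0052 and 6.2e-04). POLR1G had 6.69, 6.73, 6.55, 6.50 and 6.63 at 4 h, against 5.89, 6.41, 6.00, 6.13 and 6.20 at 0 h, with no overlap. At 24 h their differences of 0.31 and 0.25 were not called (adjusted p = 0.061 in both). POLR1H was not called at 4 h (0.31, adjusted p = 0.055) and rose at 24 h, with 9.49, 8.99, 9.07, 9.28 and 8.77, against 8.33, 8.64, 8.59, 8.60 and 8.51 at 0 h. All 5 glands at 24 h were above the 0 h glands (0.59 ± 0.11, limma adjusted p = 1.5e-04).

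POLR1B had 6.96, 7.23, 7.40, 7.26 and 7.43 at 4 h and 7.08, 7.05, 6.76, 7.10 and 6.78 at 24 h on day 11, against 7.78, 7.63, 8.61, 8.38 and 7.35 at 0 h. The 24 h glands were all below the 0 h glands, and the 0 h glands were widely spread. It fell by 1.00 ± 0.20 at 24 h and by 0.70 ± 0.20 at 4 h on the log2 scale (limma adjusted p = 2.5e-04 and 0.013). Without replicate 3 of day 11 at 0 h the 4 h call was lost (adjusted p = 0.061). The 2 other probe sets of POLR1B, with means of 3.17 and 4.32, differed by -0.06 and 0.10 at 24 h and by -0.20 and 0.36 at 4 h (limma adjusted p = 0.17 and 0.09 at 4 h), the last of these in the opposite direction, and were not called at either time.

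At 4 h on day 11, 4 of the 7 RNA polymerase III subunits fell, and 3 of those were also lower at 24 h. POLR3B had 6.74, 7.13, 7.24, 6.64 and 7.12 at 4 h and 7.00, 6.95, 7.20, 6.84 and 6.78 at 24 h, against 7.25, 7.82, 7.87, 7.68 and 7.76 at 0 h. Both later groups lay below the 0 h glands, by -0.70 ± 0.13 and -0.72 ± 0.13 (limma adjusted p = 1.6e-04 and 4.2e-05). POLR3GL had 7.16, 6.98, 7.01, 7.00 and 7.17 at 4 h and 7.13, 7.10, 7.05, 7.19 and 6.98 at 24 h, against 7.57, 7.10, 7.51, 7.33 and 7.43 at 0 h. It fell by 0.32 and 0.30 on the log2 scale (limma adjusted p = 0.010 and 0.011), and its 2 other probe sets by 0.57 and 0.51 at 4 h and by 0.64 and 0.69 at 24 h.

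POLR3K, the small subunit that acts at termination, was dim, with 4.89, 5.00, 5.24, 3.84 and 4.81 at 4 h and 4.77, 4.65, 4.44, 4.41 and 4.53 at 24 h, against 5.38, 5.14, 5.42, 5.20 and 5.11 at 0 h on day 11. It was lower at 24 h with no overlap (-0.69 ± 0.15, limma adjusted p = 6.8e-04). The 4 h difference of -0.49 (adjusted p = 0.021) was lost without replicate 4 at 4 h or replicate 3 at 0 h, with adjusted p up to 0.061 (limma). POLR3F, a subunit of the initiation module, turned within a day: it had 7.10, 7.90, 7.72, 7.65 and 7.82 at 4 h and 8.38, 8.66, 8.71, 8.26 and 8.21 at 24 h, against 7.99, 7.94, 7.89, 8.30 and 8.20 at 0 h. It was lower at 4 h (-0.42 ± 0.12, limma adjusted p = 0.017), an outcome lost without replicate 4 at 0 h or replicate 1 at 4 h (up to 0.073), and higher at 24 h (0.38 ± 0.12, adjusted p = 0.021), lost without 4 of the 10 arrays (up to 0.073). Its 2 other probe sets, with means of 3.54 and 3.84, were not called at either time.

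The biogenesis genes that rose at 4 h on day 11 were FBL, RRP1, RRP15 and NOP9. FBL had 10.16, 9.82, 9.78, 9.79 and 9.72 at 4 h, against 9.02, 9.62, 9.56, 9.27 and 9.29 at 0 h. All 4 h glands were above the 0 h glands (0.50 ± 0.14, limma adjusted p = 0.010), although replicate 1, the array that stood apart, was the highest of them. RRP15 had 6.56, 6.52, 6.49, 6.79 and 6.35 at 4 h, against 5.40, 6.18, 6.03, 6.15 and 6.25 at 0 h (0.54 ± 0.17, limma adjusted p = 0.027). RRP1 rose by 0.46 ± 0.11 and NOP9 by 0.38 ± 0.12 (limma adjusted p = 0.0035 and 0.020). The 2 other probe sets of NOP9 differed by 0.21 and 0.01 and were not called (adjusted p = 0.46 and 0.98). RRP15 lost its call without replicate 1 at 0 h or replicate 4 at 4 h (up to 0.11), and NOP9 without 3 of the 10 arrays (up to 0.059).

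Wider lists of ribosome biogenesis genes also held more rises than falls at 4 h on day 11. Of 35 large subunit factors 10 rose and 0 fell, and of 35 small subunit factors 6 rose and 0 fell (limma). Of 14 exosome and trimming genes 5 rose and 0 fell. Over all probe sets 8.02% were called higher and 10.3% lower. The polymerase lists did not share this: 0 of 9 RNA polymerase I and 0 of 10 RNA polymerase III genes were called. Of 29 RNA polymerase II factors 3 rose and 7 fell. The median difference of the 24 biogenesis members was 0.20, against -0.04 over all named genes. RCL1, of the small subunit processome, rose by 0.80 and MYC by 0.86 (limma adjusted p = 4.6e-04 and 6.7e-05). CDKN1A, a cell cycle inhibitor and p53 target, rose by 1.84 on day 11 and by 1.13 on day 4. HEXIM1, which holds the elongation factor P-TEFb inactive, fell by 1.15 on the log2 scale on day 11 (limma adjusted p = 6.3e-06). None of the 5 markers of dividing cells was called at 4 h on either day, and 4 of 7 endothelial, all 3 neutrophil, 1 of 6 macrophage and 1 of 6 fibroblast and smooth muscle markers were higher at 4 h on day 11. Of 5 steroidogenic markers 2 were lower there. At 4 h on day 4, 2 of 7 endothelial, 1 of 6 macrophage and 1 of 3 neutrophil markers were higher. On that day 1 of 5 steroidogenic markers was lower. Their part was not tested.

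At 24 h on day 11, 5 of the 50 genes were higher and 12 were lower than at 0 h, against 14.3% of all probe sets called higher and 15.4% called lower. For all named genes the shares were 17.9% higher and 20% lower. Of the 12 lower calls 10 were polymerase genes, and all 12 held without any 1 array. POLR2L, a small shared subunit, had 10.83, 10.68, 10.90, 10.50 and 10.56 at 24 h, against 11.26, 11.49, 11.58, 11.07 and 11.42 at 0 h. The groups were apart by -0.67 ± 0.10 (limma adjusted p = 8.8e-06). POLR2E, also shared by all 3 enzymes, and POLR1D, shared by polymerases I and III, fell by 0.42 and 0.40 on the log2 scale, and POLR2C and POLR2D of RNA polymerase II by 0.39 and 0.37.

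Some RNA polymerase II subunits moved the other way at 24 h on day 11. POLR2I, a subunit for transcript fidelity, had 9.40, 9.15, 9.47, 9.52 and 9.43 at 24 h, against 8.66, 8.86, 9.02, 9.18 and 9.01 at 0 h. It rose by 0.45 ± 0.10 (limma adjusted p = 8.4e-04), with the lowest 24 h gland under the highest 0 h gland. POLR2G, of the stalk, rose by 0.19 ± 0.07 (adjusted p = 0.039), and this was lost without 7 of the 10 arrays (up to 0.15). At 4 h POLR2M, an associated subunit, had been lower, with 6.95, 7.22, 7.14, 6.97 and 7.45, against 7.63, 7.27, 7.48, 7.66 and 7.37 at 0 h (-0.33 ± 0.10, limma adjusted p = 0.016, lost without 3 of the 10 arrays, up to 0.055). At 24 h POLR2M had 7.14, 7.39, 7.67, 7.46 and 7.46.

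Among the biogenesis genes at 24 h on day 11, 1 rose and 2 fell. RRP7 had 7.57, 7.73, 7.87, 7.98 and 7.94 at 24 h, against 8.63, 8.04, 9.13, 8.57 and 8.28 at 0 h. The groups did not overlap (-0.71 ± 0.14, limma adjusted p = 1.3e-04), and its other, dimmer probe set, with a mean of 5.44, differed by -0.16 (adjusted p = 0.43). RRP36, another small subunit factor, fell by 0.57 on the log2 scale (limma adjusted p = 4.2e-05). UTP18 had 6.79, 6.75, 7.03, 7.01 and 6.96 at 24 h, against 6.40, 6.49, 6.69, 6.60 and 6.44 at 0 h. It rose by 0.38 ± 0.13 (limma adjusted p = 0.021) with no overlap, and was lost without 3 of the 10 arrays (up to 0.053).

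Of the wider lists at 24 h on day 11, 8 of 35 small subunit factors rose and 5 fell, and 6 of 35 large subunit factors rose and 1 fell, against 14.3% of all probe sets called higher and 15.4% called lower. Nothing about these lists is read from counts of this size. RCL1 rose by 1.00 and MYC by 0.95, HEXIM1 fell by 1.32 on the log2 scale, and GADD45A, a stress-induced p53 target, rose by 2.16 (limma adjusted p = 9.8e-06, 5.4e-06, 2.1e-07 and 8.3e-10). Cell type markers moved too. All 5 steroidogenic markers were lower at 24 h on day 11 (mean level 10.65, against 11.99 at 0 h, medians of 5 arrays), and all 3 neutrophil, 3 of 6 macrophage and 5 of 6 T and NK cell markers were higher. Of 7 endothelial markers 1 was higher and 2 were lower, and 0 of 5 markers of dividing cells were called. Both B cell markers measured stayed dim (group means of 3.75 to 4.47) and were not called. The part of these cells in the result was not tested.

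At 24 h on day 4, 0 of the 50 genes were higher and 8 were lower than at 0 h, against 2.12% of all probe sets called higher and 3.05% called lower. Named genes were called higher in 3.03% and lower in 4.73%. At an unadjusted p under 0.05 the counts of the 50 were 3 and 23 (limma), and the share of all probe sets at that threshold was not counted. The median log2 difference was -0.19, against 0.00 over all named genes, and 42 of the 50 differences were below 0. Of the 8, 7 were biogenesis genes and POLR1G was the other (-0.38 ± 0.10, limma adjusted p = 0.022). NOP56 had 10.08, 9.69, 10.12, 9.14 and 10.26 at 24 h, against 10.42, 10.24, 10.76, 10.98 and 10.49 at 0 h. FBL had 10.60, 10.02, 10.07, 9.62 and 10.36 at 24 h, against 10.67, 10.58, 10.83, 10.92 and 10.70 at 0 h. In both genes replicate 4 was the lowest gland and 1 gland reached the 0 h range.

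NOP56 and FBL fell by 0.72 ± 0.17 and 0.61 ± 0.14 on the log2 scale (limma adjusted p = 0.012 and 0.010). UTP18 had 6.99, 6.92, 6.82, 6.71 and 6.74 at 24 h, against 7.65, 7.19, 7.47, 7.34 and 7.27 at 0 h, with no overlap (-0.55 ± 0.13, limma adjusted p = 0.011). RRP15 had 7.01, 6.50, 6.67, 6.45 and 6.93 at 24 h, against 7.54, 6.87, 7.48, 7.17 and 7.42 at 0 h (-0.58 ± 0.17, limma adjusted p = 0.044), and UTP25, NOP2 and NCL fell by 0.44, 0.36 and 0.32. UTP18 was the 1 call that held without any 1 array. Without replicate 4 at 24 h the other 7 missed the threshold (FBL 0.057, NOP56 0.059 and NCL 0.071 in limma) and 1 gene was called, and without replicate 1 at 24 h 13 were called. Fitted with only the 10 arrays of this comparison, 1 gene was called, and with array weights 17 were. The dim probe set of NOP56 and the 2 other probe sets of NOP2 were not called here either (-0.18, -0.08 and -0.16).

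The glands of this group also differed most in markers of dividing cells. Their mean log2 signal was 10.08, 8.07, 8.78, 6.78 and 9.39 in replicates 1 to 5 at 24 h on day 4, against 10.01 to 10.35 at 0 h, and all 5 markers were called lower. Replicate 4 was lowest in this mean and in the mean of the 24 biogenesis genes (7.94), and replicate 1 was highest in both (8.30 for the biogenesis genes). Of 5 steroidogenic markers 1 was higher, and no other cell type marker was called. The macrophage marker mean was 6.97, 8.23, 8.32, 8.41 and 7.20 in replicates 1 to 5, against 7.13 to 7.25 at 0 h. The neutrophil marker mean was 6.95, 7.69, 8.05, 8.34 and 6.77, against 6.74 to 8.10 at 0 h. Both means were highest in replicate 4, so these glands differed in more than markers of dividing cells. The endothelial marker mean spread less, at 6.96 to 7.08 at 24 h. The part of these cells in the result was not tested. Of the wider lists, 10 of 35 large subunit, 5 of 35 small subunit, 4 of 14 exosome and trimming and 3 of 11 snoRNA-protein assembly genes fell and 0 rose in each (limma). Over all probe sets 3.05% were called lower and 2.12% higher. Of the polymerase lists, 1 of 9 genes fell for RNA polymerase I, 1 of 10 for III and 3 of 29 for II, and 0 rose. MYC fell by 0.56 on the log2 scale and LYAR by 0.91 (limma adjusted p = 0.017 and 0.0042).

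The change between 4 h and 24 h was read separately within each day, with the 4 h glands as its base. On day 11, 5 of the 50 genes were higher and 11 lower at 24 h than at 4 h, against 12.5% of all probe sets called higher and 10.7% called lower. The shares of all named genes were 16.2% higher and 14.3% lower. POLR3F rose by 0.80 and POLR2I by 0.50, with no overlap (limma adjusted p = 1.5e-05 and 3.7e-04). POLR2I had 9.40, 9.15, 9.47, 9.52 and 9.43 at 24 h, against 8.94, 8.94, 8.89, 8.92 and 8.78 at 4 h. POLR3C, of the initiation module, had 7.86, 7.88, 8.19, 8.02 and 8.05 at 24 h, against 7.29, 7.81, 7.60, 7.72 and 7.81 at 4 h (0.35 ± 0.12, limma adjusted p = 0.029, lost without 5 of the 10 arrays, up to 0.11).

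Of the genes lower at 24 h than at 4 h on day 11, 6 of 11 were small subunit factors. RRP7 fell by 0.63 on the log2 scale, UTP15, of the subcomplex that binds the precursor first, by 0.54, and UTP3 by 0.42 (limma adjusted p = 8.1e-04, 0.014 and 0.011). UTP15 had 6.39, 6.71, 6.98, 6.27 and 6.86 at 24 h, against 7.51, 6.99, 6.96, 7.09 and 7.34 at 4 h. Its groups overlapped by a narrow margin, and the call was lost without replicate 1 at 4 h or replicate 4 at 24 h (up to 0.055). Between these times on day 11 all 5 steroidogenic and 3 of 7 endothelial markers were lower, and 3 of 6 T and NK cell, 2 of 6 macrophage, 2 of 6 fibroblast and smooth muscle and 1 of 3 neutrophil markers were higher. Their part was not tested.

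On day 4, 4 of the 50 genes were higher and 17 lower at 24 h than at 4 h, against 7.67% of all probe sets called higher and 7.24% called lower. The shares of all named genes were 10.2% higher and 9.84% lower. All 4 higher genes were polymerase genes (POLR1E, POLR1B, POLR2M and POLR3GL), and 14 of the 17 lower ones were biogenesis genes. POLR2M had 7.38, 7.51, 7.59, 7.57 and 7.42 at 24 h, against 7.13, 7.04, 6.99, 7.19 and 7.30 at 4 h (0.36 ± 0.10, limma adjusted p = 0.012). POLR3GL had 7.25, 7.38, 7.39, 7.14 and 7.07 at 24 h, against 7.03, 6.99, 6.79, 6.81 and 6.94 at 4 h (0.34 ± 0.09, limma adjusted p = 0.0095). Neither gene overlapped between these times. POLR1B had 7.50, 8.19, 8.49, 8.90 and 8.09 at 24 h, against 7.51, 7.69, 7.35, 7.77 and 7.70 at 4 h, a difference of 0.63 ± 0.20 (limma adjusted p = 0.030) that was lost without 5 of the 10 arrays (up to 0.13).

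NOP56, FBL and RRP15 fell most among the biogenesis genes between 4 h and 24 h on day 4, by 0.67, 0.66 and 0.62 on the log2 scale (limma adjusted p = 0.0063, 0.0012 and 0.014). Of the 17 lower calls 3 (NOP56, FBL and UTP18) held without any 1 array. RRP15 was lost without replicate 4 at 4 h (limma adjusted p = 0.052). Without replicate 4 at 24 h 4 were lower and 3 higher. Without replicate 4 or replicate 5 at 4 h, 9 were lower and 4 higher in each case. Of 35 large subunit factors 14 fell and 0 rose, and of 35 small subunit factors 8 fell and 1 rose (limma). Over all probe sets 7.24% were called lower and 7.67% higher between these times. Of the polymerase lists, 4 of 9 genes fell for RNA polymerase I, 1 of 10 for III and 3 of 29 for II, and 0, 1 and 2 rose. Of the 5 markers of dividing cells 4 were lower at 24 h than at 4 h on day 4, as were 3 of 7 endothelial, 1 of 6 fibroblast and smooth muscle and 1 of 3 neutrophil markers, and 3 of 5 steroidogenic markers were higher. Their part was not tested.

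The last question was whether the responses differed between the days, tested as an interaction. For the 4 h response 0 of the 50 genes were called in either direction by limma, against 0.725% of all probe sets called higher on day 11 and 0.375% called lower. Named genes were called higher in 0.939% and lower in 0.459%. At an unadjusted p under 0.05 the counts of the 50 were 8 higher and 1 lower (limma), with no count of all probe sets at that threshold. POLR1H and POLR1G had the largest differences, 0.55 ± 0.16 and 0.52 ± 0.14 (limma adjusted p = 0.093 and 0.062).

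For the 24 h response 17 of the 50 genes were higher on day 11 than on day 4 and 8 were lower, against 10.6% of all probe sets called higher and 11.7% called lower. The shares of all named genes were 14.8% higher and 15% lower. Of the 24 biogenesis genes 11 were higher and 1 lower, with a median of 0.41, and of the 26 polymerase genes 6 were higher and 7 lower, with a median of 0.09. UTP18 differed by 0.93 ± 0.18, NOP56 by 0.90 ± 0.24 and FBL by 0.88 ± 0.20 (limma adjusted p = 2.5e-04, 0.0055 and 0.0012). UTP18 was the biogenesis gene called in both days' 24 h comparisons, higher on day 11 and lower on day 4. For FBL and NOP56 the day 11 differences of 0.27 and 0.18 were not called.

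The genes with a lower 24 h response on day 11 were POLR1B, POLR1E, POLR3K, POLR1D, POLR2L, POLR3B, POLR3GL and RRP36, and 7 of these 8 are polymerase genes. POLR1B differed by -1.42 ± 0.28 (limma adjusted p = 3.8e-04), and its 2 dim probe sets by -0.16 and 0.07, not called. POLR1H, POLR2I and POLR1G were higher by 0.78, 0.70 and 0.62. Of the wider lists, 16 of 35 large subunit factors were higher and 0 lower, and 14 of 35 small subunit factors higher and 2 lower (limma). Of 14 exosome and trimming genes 5 were higher and 0 lower. Over all probe sets 10.6% were called higher and 11.7% lower. Of the polymerase lists, 1 of 9 genes was higher for RNA polymerase I, 1 of 10 for III and 3 of 29 for II, and 0, 1 and 1 were lower. MYC differed by 1.51, RCL1 by 1.39, LYAR by 1.34 and HEXIM1 by -1.65 (limma adjusted p = 2.0e-06, 2.7e-05, 2.1e-04 and 3.5e-06). Of the 5 markers of dividing cells 3 were also higher in this difference, and all 5 steroidogenic markers were lower. Higher too were 2 of 3 neutrophil, 2 of 6 macrophage, 1 of 6 T and NK cell and 1 of 6 fibroblast and smooth muscle markers, and of 7 endothelial markers 1 was higher and 1 lower. Their part was not tested.

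**Figure D5:**
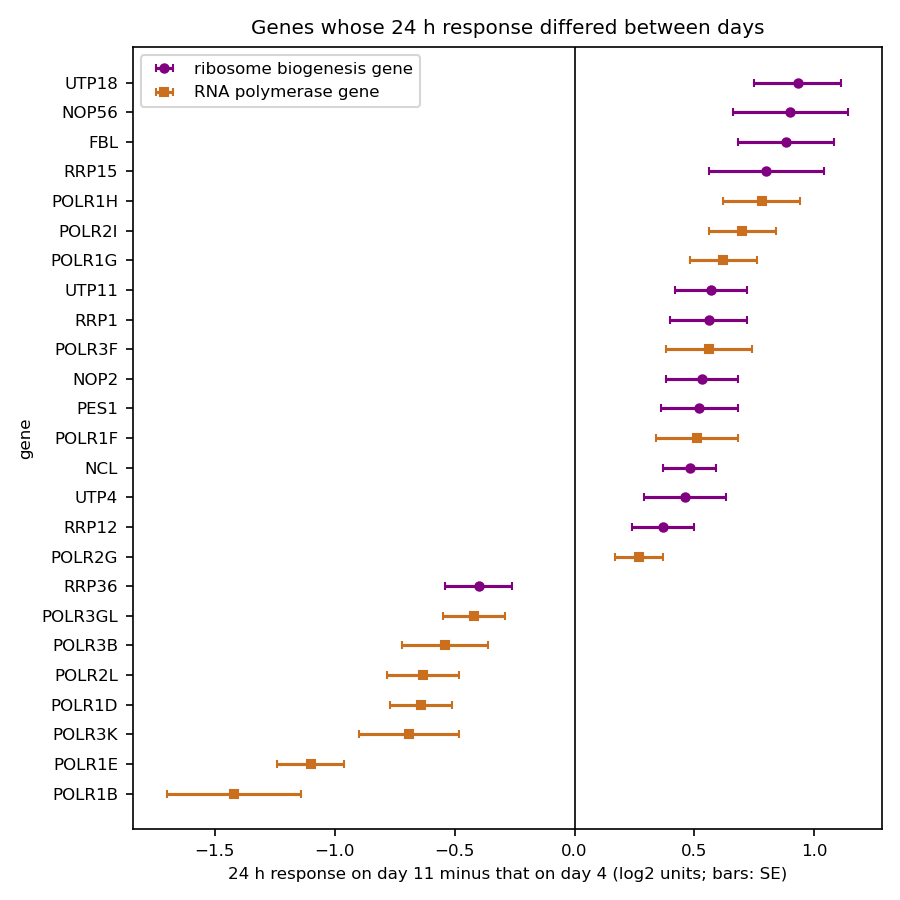
Difference of the 24 h response, day 11 minus day 4, in log2 units (points, with SE bars) for the 25 genes called, sorted by size; circles are ribosome biogenesis genes and squares RNA polymerase genes. Of the 17 genes above 0, 11 are biogenesis genes, and POLR1E and POLR1B lie lowest at -1.10 and -1.42.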

How the data were processed

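Luteal RNA, labelled as biotin cRNA, was measured on Affymetrix GeneChip Bovine Genome Arrays. The table the authors deposited holds a log2 signal for every probe set, made with RMA per the submitters' processing notes; its version, and which arrays were normalized together, are not given in the sources used here. The values were used as deposited. Of 24128 probe sets 112 controls were left out, and the platform annotation gave 13292 of the rest exactly 1 symbol, 86 several and 10638 none. A probe set annotated with POLR1D under 2 gene numbers was not used.

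All 30 arrays were fitted in limma 3.58.1 (R 4.3.3) with a mean per group, in 9 contrasts. Array values are printed for genes among the 3 largest called rises or falls of any contrast. Companion lists and cell type markers were written from general knowledge. The genes and lists were chosen with earlier results of these data known. The fit was tested on simulated data. Alternatives were quantile and median scaling, a filter on dim probe sets, array weights, trend and robust moderation, the mean of a gene's probe sets, the contrast's own arrays, a replicate block, and each array left out. The number of arrays limits the precision.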

Additional observations from a re-analysis of the deposited data

Results flagged for a closer look

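Among 114 groups of 5 arrays examined, from 19 genes with array values, 3 held an array that stood apart by Dixon's criterion (gap over range above 0.71), and chance flags about 1 in 20 groups. POLR2L was 10.97 in replicate 4 of day 11 at 4 h, and 11.25 to 11.34 in the other arrays of the group. FBL was 10.16 in replicate 1 of the same group, and 9.72 to 9.82 in the others. RRP15 was 5.40 in replicate 1 of day 11 at 0 h, and 6.03 to 6.25 in the others. UTP6, outside the 19 genes examined, was 5.89 in replicate 1 of day 11 at 4 h, and 7.42 to 7.66 in the others.

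The 24 h response differed between the days, by the interaction in limma, for 25 genes, given here as day 11 minus day 4 in log2 units. Of the polymerase genes, POLR1H (0.78), POLR2I (0.70), POLR1G (0.62), POLR3F (0.56), POLR1F (0.51) and POLR2G (0.27) were higher. POLR3GL (-0.42), POLR3B (-0.54), POLR2L (-0.63), POLR1D (-0.64), POLR3K (-0.69), POLR1E (-1.10) and POLR1B (-1.42) were lower. Of the biogenesis genes, UTP18 (0.93), NOP56 (0.90), FBL (0.88), RRP15 (0.80), UTP11 (0.57), RRP1 (0.56), NOP2 (0.53), PES1 (0.52), NCL (0.48), UTP4 (0.46) and RRP12 (0.37) were higher, and RRP36 (-0.40) was lower. Without some of the 20 arrays, POLR1F, POLR2G, POLR3B, RRP12, RRP36 and UTP4 missed the threshold (adjusted p up to 0.072, 0.11, 0.057, 0.089, 0.079 and 0.097). NOP2 and POLR3F missed it with the mean of a gene's probe sets.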

How the results depend on the processing

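Among the genes with array values, no difference called in the main fit or in an alternative changed direction between them. With only the arrays of the contrast, members called were 6 at 4 h on day 11, 1 at 24 h and 2 at 4 h on day 4, and probe sets called were 2520 at 4 h on day 11 and 147 at 24 h on day 4. Array weights gave 17 members and 2356 probe sets at 24 h on day 4, and 2 members and 1981 probe sets at 4 h on day 4. For the 4 h response between days, 1 member was called after quantile scaling and after leaving out the dimmest 30% of probe sets. The causes were not tested. Over the genes with array values and all contrasts, 3319 values kept their side of the threshold, 104 no longer passed it and 35 newly passed it. The 3319 may include values that changed sign without being called in either fit.

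With each array left out in turn, members called ranged from 1 to 13 at 24 h on day 4, 7 to 23 for 24 h against 4 h on day 4, 0 to 1 for the 4 h response between days, 1 to 1 at 4 h on day 4, 28 to 32 for day 11 against day 4, 9 to 15 and 15 to 18 at 4 h and 24 h on day 11, 12 to 16 for 24 h against 4 h on day 11 and 20 to 26 for the 24 h response between days. Probe sets called ranged from 357 to 2071 at 24 h on day 4, 608 to 1061 at 4 h on day 4 and 157 to 356 for the 4 h response between days.

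The labels number the replicates alike in each group. Deviations of same-numbered arrays correlated at -0.20 to 0.26 (24 of 75 pairs above 0.1, against 48 of 300 pairs with different numbers), and 14 of 30 arrays correlated best with an array of their own number. That is a hint of something shared, from the data and not from the labels. The median correlation was 0.05 for same-numbered pairs and -0.01 for the others. The numbers were not taken as pairs because animals were assigned to groups at random and the labels name nothing that a number shares. What same-numbered arrays share was not tested. With the replicate block, members called were 1 at 4 h and 10 at 24 h on day 4, 15 and 19 on day 11, 32 for day 11 against day 4, 21 and 16 for 24 h against 4 h on day 4 and day 11, and 0 and 25 for the 4 h and 24 h responses between days.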
